A study of Mus musculus with 90 samples.

Results

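*Tnfrsf1b*, *Sucnr1*, *Map3k6*, *Arhgef26*, *Palld* and *Fam107a* are 6 genes of cell signaling and of the actin cytoskeleton, of 27654 genes counted in mouse liver. They were chosen by their measured change in WT livers after corticosterone, the main glucocorticoid of mice, and no fixed fold was set as a threshold. Their values in that experiment are therefore given as a description, without a test. The study asked how glucocorticoids and their receptor GR shape the liver's response to caloric restriction, and it sequenced the polyadenylated RNA of 90 livers, each from a single male C57BL/6J mouse on chow. The mice of the diets were 12 weeks old when their regimes began, and those given injections were 12 weeks old before a period of handling that came first. Times are given in hours after lights on (ZT), so that lights went off, and food was given, at ZT12.

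In the corticosterone experiment, WT mice under night-restricted feeding received corticosterone by injection every day for a week (CORT, n = 3) or, by the study's methods, the vehicle alone (n = 3), and livers were taken at ZT12. A diet comparison set WT mice whose calories were reduced by 40% (cal. res., n = 3) against WT mice on the control diet (ctrl., n = 3), also at ZT12. Those 3 control libraries are titled AL, as for free access to food, but labelled with night-restricted feeding. The time series covered 6 time points 4 h apart with 3 or 4 livers per group, in all 36 livers on caloric restriction and 42 on night-restricted control feeding. Its control mice, called WT here, carried the floxed GR gene (GRfl/fl), and its knockout mice (GR LKO) carried the same floxed gene with Alb-Cre. The albumin promoter drives Cre in hepatocytes, so the other cells of a GR LKO liver keep their receptor. Whole liver was sequenced in bulk, in which fewer cells of a type and less RNA per cell cannot be told apart.

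A level is given in CPM, the usual unit of counts scaled to a common library size, here after scaling by the trimmed mean of M values within each deposited table. The tables were scaled separately, so levels from different experiments stand side by side and were not tested against each other. Total counts per library ran from 14235473 to 20788575 in the time series on caloric restriction and from 10057544 to 17089004 on control diet, which are separate sets of libraries in separate tables. They ran from 36442195 to 39492146 in the diet comparison and from 13739631 to 16077943 in the corticosterone experiment. A count of 0 allows up to 3 counts, which is 0.143 to 0.299 CPM in the libraries of the time series. This limit covers counting error only. Errors of levels are SD over livers.

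Glucocorticoids bind GR, which then acts on DNA in the nucleus, and in liver this hormone axis drives gluconeogenesis, amino acid breakdown and the fasting response, with a daily surge before the active phase. The products of the 6 genes lie outside those metabolic pathways. They carry cues from cytokines, metabolites and stress into kinase cascades, or they shape the actin filaments under the cell membrane.

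*Tnfrsf1b* encodes the TNF receptor TNFR2, which lacks a death domain and signals through TRAF adaptors. It is ENSMUSG00000028599 at chr4:145213463-145246870 of GRCm38. *Sucnr1* encodes a G protein-coupled receptor for succinate and is ENSMUSG00000027762 at chr3:60081869-60087566. *Map3k6* encodes a stress-activated MAP kinase kinase kinase, ASK2, at the head of the p38 and JNK cascades. It is ENSMUSG00000028862 at chr4:133240818-133252929. *Arhgef26*, ENSMUSG00000036885 at chr3:62338344-62462221, encodes an exchange factor that loads the small GTPase RhoG with GTP. An antisense gene, *9330121J05Rik*, shares exon bases with it, and whether reads of both can be told apart there is not known, since the labels name a kit that does not keep the strand and the study's methods name a stranded kit as well. *Palld*, ENSMUSG00000058056 at chr8:61511433-61902690, encodes palladin, a scaffold of actin bundles. Its span also holds *Gm18066* and *4930512H18Rik*, which share none of its exon bases. *Fam107a*, ENSMUSG00000021750 at chr14:8296274-8318023, encodes a small protein that binds and bundles actin filaments.

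All 7 hepatocyte markers were detected in every library, with *Alb* as the most abundant. *Nr3c1*, the GR gene (ENSMUSG00000024431), lay between 16.2 and 32.1 CPM in the GR LKO libraries and between 70.1 and 118 CPM in the WT libraries of the time series, so the genotypes did not overlap at any time. A few libraries stood apart in markers of other tissues. WT replicate 3 at ZT12 on caloric restriction held 690 CPM summed over 6 exocrine pancreas genes, all detected and led by *Ctrb1* at 138 CPM, where the other livers of its group held 0.140 and 0.697 CPM with *Prss2*, *Cpa1*, *Ctrb1* and *Pnlip* at 0. WT replicate 2 at ZT16 on control diet held 349 CPM of the same genes, led by *Cela2a* at 83.1 CPM, and 25.6 CPM over 4 smooth muscle genes. CORT replicate 2 held 36.8 CPM of the smooth muscle genes, led by *Myh11* at 13.1 CPM, where the other 5 libraries of that experiment held 3.66 to 5.22 CPM. Their part in the results was not tested. Calls of the 6 genes between the genotypes at these times, and some further values, are also given without these libraries.

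In the corticosterone experiment the receptor gene *Tnfrsf1b* stood at 22.6, 20.6 and 19.7 CPM in the control livers and at 78.0, 72.6 and 74.7 CPM in the CORT livers. The CORT livers were all higher, and the groups lay far apart with little spread (21.0 ± 1.49 against 75.1 ± 2.70 CPM, n = 3 each, a log2 ratio of 1.84). The succinate receptor gene *Sucnr1* moved the other way, from 42.2, 44.0 and 46.5 CPM in control livers to 10.6, 14.1 and 11.9 CPM with CORT. Each CORT liver was below each control liver (log2 ratio −1.86). The kinase gene *Map3k6* was scarce in control livers, at 0.861, 0.995 and 0.755 CPM, and stood at 6.96, 8.23 and 7.82 CPM with CORT. Its groups did not overlap either (log2 ratio 3.12). *Arhgef26* counted 18.0, 20.1 and 19.1 CPM in control livers and 78.8, 110 and 89.1 CPM in CORT livers. CORT replicate 2 was the highest, and the log2 ratio was 2.28 with it and 2.13 without it.

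The cytoskeletal genes *Palld* and *Fam107a* differed in direction. *Palld* was abundant in control livers, at 110, 108 and 97.0 CPM, and stood at 36.1, 35.5 and 40.4 CPM in CORT livers. All CORT livers were below all control livers (log2 ratio −1.49). *Fam107a* was near the detection floor in control livers, with 11, 9 and 5 counts (0.789, 0.559 and 0.343 CPM), and stood at 51.4, 132 and 46.9 CPM in CORT livers. It had the widest separation of the 6 genes, with a log2 ratio of 7.08 that came to 6.43 without CORT replicate 2, the library with the raised smooth muscle genes. Over all genes of this experiment 935 of 11523 (8.11%) were called, that is, had an adjusted p under 0.05 by edgeR's quasi-likelihood test after Benjamini-Hochberg adjustment, and 515 of them were higher with CORT. Nothing is read from that share for the 6 genes, since this contrast chose them. Single markers of other cells were called in it as well, *Lrat* of stellate cells (−1.34), *Kdr* of endothelial cells (−0.62) and *Sox9* of cholangiocytes (−1.16) lower, and *Marco* of Kupffer cells higher (1.58). Mean sums with CORT and in controls were 149 and 161 CPM for stellate cell markers and 32.5 and 33.4 CPM for cholangiocyte markers. They were 123 and 160 CPM for endothelial markers and 117 and 83.4 CPM for Kupffer cell markers. Monocyte markers summed to 5.02 and 2.82 CPM in the same order, and neutrophil markers to 4.84 and 2.51 CPM. Erythrocyte markers had mean sums of 396 CPM with CORT and 706 CPM in controls, with 0 of 5 called. Their part in the values of the 6 genes was not tested.

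The WT control groups at ZT12 did not start from like levels. Mean *Arhgef26* was 19.1 CPM in the corticosterone experiment's controls, 68.3 CPM in those of the diet comparison and 54.4 CPM in ctrl. WT of the time series. *Palld* ran the other way, at 105, 40.5 and 39.5 CPM. *Tnfrsf1b* stood at 21.0, 41.8 and 40.2 CPM in those 3 control groups and *Sucnr1* at 44.2, 26.4 and 36.7 CPM. Differences between the experiments were not tested, since each has its own set of libraries.

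**Figure D1:**
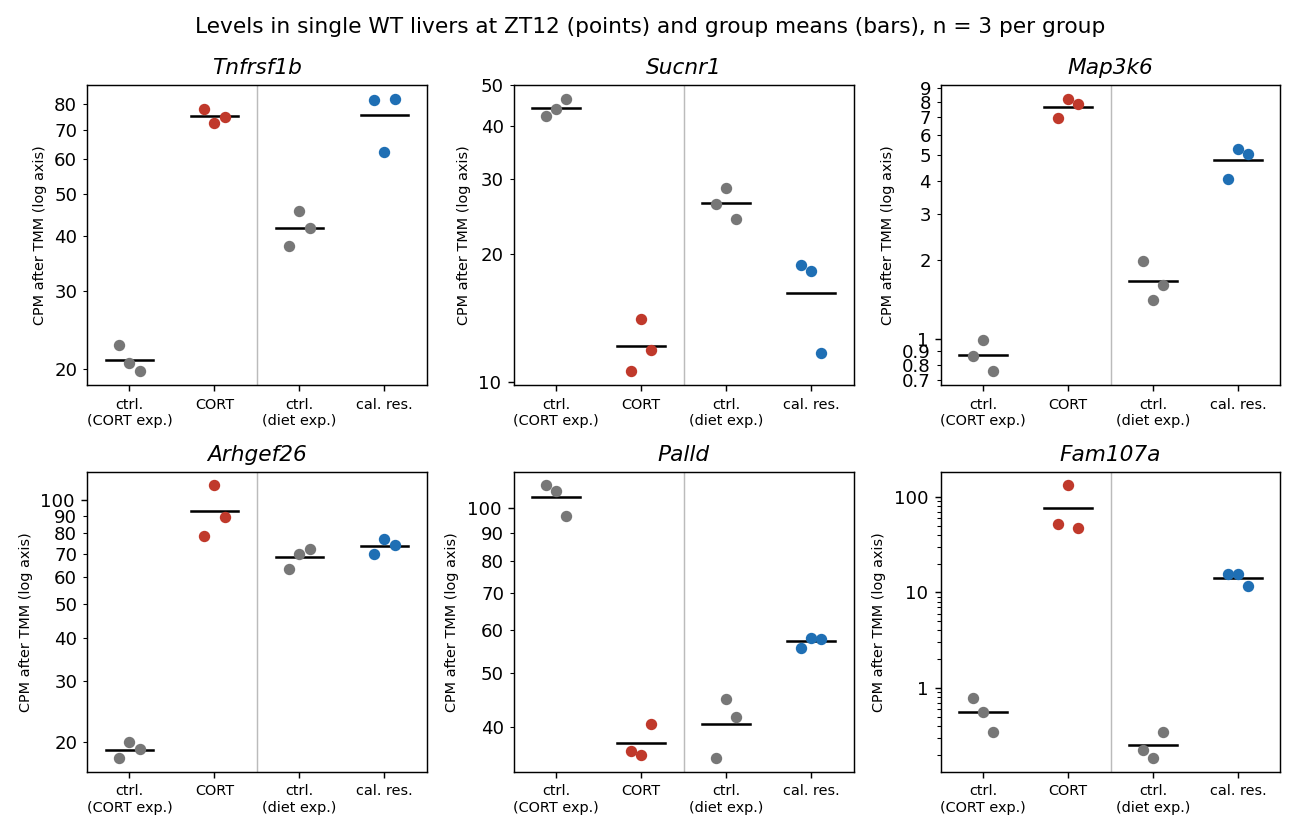
Levels of the 6 genes in WT livers at ZT12, in CPM on a log axis, for the controls and CORT livers of the corticosterone experiment and the ctrl. and cal. res. livers of the diet comparison (points are livers, bars are means, n = 3 per group). *Fam107a* lies between 0.183 and 0.789 CPM in the control livers of both experiments, between 46.9 and 132 CPM with CORT and between 11.6 and 15.7 CPM on caloric restriction.

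The diet comparison has its own libraries, outside the contrast that chose the genes, although the choice was made with earlier results of these data known. It asks what caloric restriction does at the hour of the hormone's daily peak. It called 5 of the 6 genes, 4 higher and 1 lower, where 47.1% of all 13062 genes tested were called, so a call alone says little here. *Fam107a* passed the count filter through the restricted livers alone, so nothing is read from this share for the 6 genes. *Fam107a* stood at 0.225, 0.183 and 0.342 CPM in ctrl. livers and at 15.7, 15.5 and 11.6 CPM in cal. res. livers. It rose by a log2 fold change of 5.82 (SE 0.24, adjusted p = 3.33e-05), from 7 to 13 counts per ctrl. liver to a moderate level in every restricted liver. Without the count filter its adjusted p was 7.13e-06. The kinase gene *Map3k6* had 1.98, 1.41 and 1.61 CPM in ctrl. livers and 4.08, 5.27 and 5.05 CPM in cal. res. livers, without overlap, and rose by 1.52 (adjusted p = 9.59e-04). *Tnfrsf1b* counted 38.1, 45.6 and 41.9 CPM against 81.7, 62.2 and 82.4 CPM. All restricted livers were higher, cal. res. replicate 2 least (log2 fold change 0.85, SE 0.13, adjusted p = 0.00187).

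*Palld* went against its direction in the corticosterone experiment. It had 35.0, 44.8 and 41.7 CPM in ctrl. livers and 55.7, 58.1 and 57.9 CPM in cal. res. livers, all of them higher (log2 fold change 0.50, adjusted p = 0.00531). *Sucnr1* fell, with 26.2, 28.7 and 24.2 CPM in ctrl. livers and 18.8, 18.2 and 11.7 CPM in cal. res. livers. Its groups did not overlap, and cal. res. replicate 3 was the lowest (log2 fold change −0.70, adjusted p = 0.0155). Without ctrl. replicate 2 its log2 fold change was −0.64 with an adjusted p of 0.0560, so the call rests on that library. *Arhgef26* was high on both diets, at 63.1, 69.6 and 72.3 CPM and at 69.8, 77.1 and 74.2 CPM. The diets overlapped, and no difference was called (log2 fold change 0.11, adjusted p = 0.279). Endothelial markers were higher on caloric restriction, 5 of 6 called, with a mean sum of 296 CPM against 183 CPM in ctrl. livers and *Ptprb* among those called. Of the hepatocyte markers 4 of 7 were called higher, with mean sums of 158083 and 82562 CPM, and *Alas2* of the erythrocyte markers was lower (13.6 against 101 CPM). Stellate cell markers had mean sums of 300 and 238 CPM, with *Dcn* called higher (0.75) and *Col1a1* lower (−1.52), and *Cd5l* of Kupffer cells was called lower (−0.50). Their part in these results was not tested.

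The same diets in WT livers of the time series, 3 on caloric restriction and 4 on control diet at ZT12, belong to separate sets of libraries, from which the diet cannot be told apart. The same livers also serve the genotype comparisons. There 3 of the 6 genes were called between the diets, where 38.1% of 11550 genes were, so that share says little. They were *Tnfrsf1b* (log2 fold change 0.92), *Fam107a* (2.73) and *Sucnr1* (−1.14). *Map3k6* (0.42, adjusted p = 0.257) and *Palld* (0.48, adjusted p = 0.120) were not called in them. Without the library with the pancreas genes the same 3 were called (0.90, 2.79 and −1.26).

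The genotype comparison asks which levels depend on GR in hepatocytes. At ZT12 on caloric restriction it called 4 of the 6 genes, 3 lower and 1 higher in GR LKO livers, where 15.3% of 11759 genes were called. *Fam107a*, 1 of those 4, passed the count filter through its WT livers alone, so nothing is read from this share for the 6 genes. *Tnfrsf1b* stood at 56.7, 95.3 and 77.2 CPM in WT livers and at 35.0, 35.1 and 36.2 CPM in GR LKO livers. The WT livers were all higher and far more scattered (log2 fold change −1.11, SE 0.17, adjusted p = 0.00761). *Sucnr1* rose, from 16.8, 14.2 and 19.3 CPM in WT livers to 42.6, 48.0 and 47.5 CPM in GR LKO livers, with a wide gap between the genotypes (1.45, SE 0.12, adjusted p = 8.00e-04). *Map3k6* had 3.51, 3.97 and 4.20 CPM in WT livers and 2.30, 1.41 and 2.44 CPM in GR LKO livers. These did not overlap, yet the difference missed the threshold (−0.93, SE 0.26, adjusted p = 0.0539).

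*Arhgef26* was even among WT livers, at 72.9, 76.5 and 79.3 CPM, and low in GR LKO livers, at 22.3, 19.6 and 24.5 CPM. It fell by 1.79 on the log2 scale (SE 0.10, adjusted p = 1.78e-04), and no liver came near the other genotype. *Fam107a* had 15.2, 19.0 and 14.5 CPM in WT livers and 0.863, 0.113 and 0.305 CPM in GR LKO livers, where replicate 2 held 2 counts. The knockout livers held 2 to 15 counts each and were all far below the WT livers (log2 fold change −5.23, SE 0.46, adjusted p = 8.50e-04), and without GR LKO replicate 1 the log2 fold change was −6.25 (adjusted p = 0.00109). Without the count filter the adjusted p over all livers was 6.58e-04. *Palld* counted 69.6, 43.8 and 52.9 CPM against 53.7, 75.0 and 85.6 CPM. Its genotypes overlapped and no difference was called (0.36, adjusted p = 0.305).

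Without WT replicate 3, the library with the pancreas genes, the calls of *Tnfrsf1b* (−1.11, adjusted p = 0.0284), *Arhgef26* (−1.76, adjusted p = 0.00140), *Fam107a* (−5.31, adjusted p = 0.00488) and *Sucnr1* (1.56, adjusted p = 0.00220) all stood. Kupffer cell markers, 8 of 8 detected in every liver at ZT12 and led by *Clec4f*, moved with genotype on this diet. Their sum was 45.4, 72.8 and 52.4 CPM in WT livers and 125, 101 and 127 CPM in GR LKO livers, and 4 of 8 were called higher. Hepatocyte markers also differed, with mean sums of 164188 (WT) against 120367 CPM. In the knockout 5 of 7 were called lower, *Apoa1* most (log2 fold change −1.32). *Alas2* of the erythrocyte markers was higher in GR LKO livers (77.1 against 32.3 CPM). Stellate cell markers, led by *Dcn*, summed to means of 258 and 237 CPM. Endothelial markers summed to means of 269 (WT) and 316 CPM, with *Oit3* called higher in the knockout (0.36). Whether other cells had a part in the values of *Sucnr1* or *Tnfrsf1b* was not tested.

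At ZT12 on control diet 4 genes were called, 3 lower and 1 higher, where 2.08% of 11428 genes were called. *Tnfrsf1b* stood at 41.7, 42.5, 34.8 and 41.8 CPM in WT livers and at 23.0, 21.3, 24.8 and 25.1 CPM in GR LKO livers. The genotypes were apart by more than their spread, with WT replicate 3 nearest to the knockout (log2 fold change −0.77, SE 0.09, adjusted p = 0.00313). *Arhgef26* had 41.1, 47.3, 50.8 and 78.2 CPM in WT livers and 24.1, 25.4, 18.0 and 19.5 CPM in GR LKO livers, again without overlap and with WT replicate 4 high above the rest (−1.32, adjusted p = 0.0123). Both calls stood in all 8 fits with 1 library left out, which was not so for the next pair of genes.

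*Map3k6* counted 2.08, 2.13, 3.59 and 3.75 CPM in WT livers and 1.24, 1.28, 0.794 and 0.939 CPM in GR LKO livers. All WT livers were higher and the gene was called (−1.43, adjusted p = 0.0447), but the call was lost with any of the 8 libraries left out. The adjusted p was then 0.0508, 0.0683, 0.131 and 0.114 without WT replicates 1 to 4, and 0.104, 0.0895, 0.113 and 0.118 without GR LKO replicates 1 to 4. *Sucnr1* had 46.1, 39.3, 34.0 and 27.5 CPM in WT livers and 62.1, 59.3, 77.8 and 61.0 CPM in GR LKO livers. The knockout livers were all higher (0.83, adjusted p = 0.0322), and this call too was lost in 6 of 8 fits. The adjusted p was 0.0805 and 0.0994 without WT replicates 2 and 3, and 0.0775, 0.0597, 0.0684 and 0.0681 without GR LKO replicates 1 to 4.

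*Fam107a* was too scarce on control diet for the test at ZT12. Its levels were 0.283, 1.37, 1.36 and 6.54 CPM in WT livers and 0.131, 0, 0 and 0.0671 CPM in GR LKO livers. WT replicate 4 held most of the counts, and no knockout liver reached the lowest WT liver. The groups held 120 and 3 counts, a ratio of 48.5 with a 95% counting interval of 16.2 to 239. The WT livers held 3 to 82 counts each. Here and in later passages such an interval covers counting error only. It pools the counts of a group and leaves out the spread between livers, so it is not a test. *Palld* had a log2 fold change of 0.16 (adjusted p = 0.841), with 34.7 and 27.9 CPM in the lowest WT livers and 32.8 CPM in the lowest knockout liver. Without the count filter *Fam107a* was tested and called there (log2 fold change −5.33, SE 1.10, adjusted p = 0.0472). Kupffer cell markers summed to means of 66.7 and 68.0 CPM in WT and GR LKO livers here. Hepatocyte markers had mean sums of 84143 (WT) against 69415 CPM, and 4 of 7 were called lower in the knockout, *Tat* most (−0.84).

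**Figure D2:**
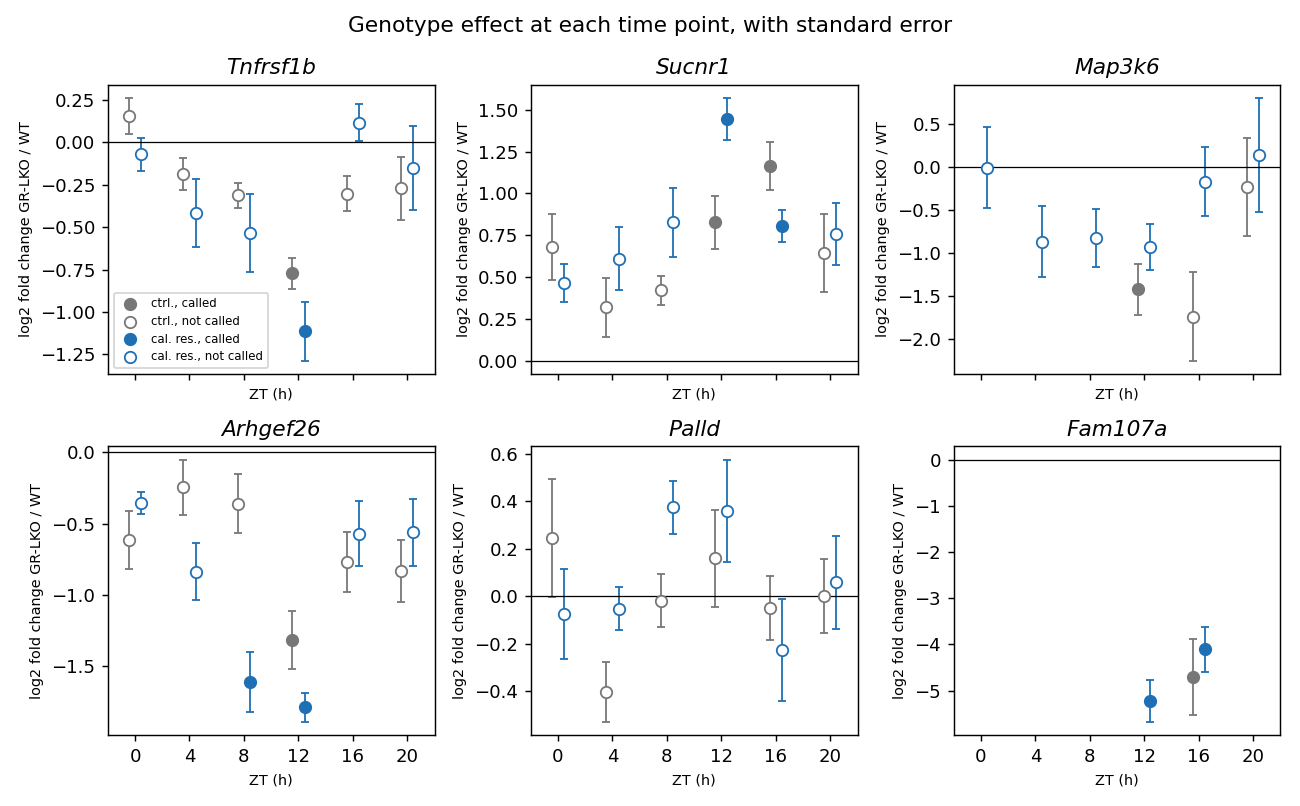
Log2 fold change of GR LKO over WT livers for each gene by time of day (ZT, in hours), with SE as error bars, on control diet in grey and on caloric restriction in blue. Filled points were called and open points were not, and groups that were not tested are absent. At ZT12 on caloric restriction *Fam107a* is lowest at −5.23 and *Sucnr1* is highest at 1.45.

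At ZT16, after food was given, *Fam107a* and *Sucnr1* were the genes called on both diets. On caloric restriction they were 2 genes of 6, where 4.54% of all genes were called, and on control diet again 2 of 6, where 1.98% were. *Fam107a* passed the count filter through its WT livers alone on both diets at ZT16, as it did at ZT12 on caloric restriction and through the restricted livers in the diet comparison, so nothing is read from these shares for the 6 genes. *Fam107a* on caloric restriction stood at 3.25, 1.65 and 3.77 CPM in WT livers and at 0.116, 0.118 and 0.253 CPM in GR LKO livers, which held 2, 2 and 4 counts. The genotypes did not overlap (log2 fold change −4.11, SE 0.49, adjusted p = 0.00462, and 0.00214 without the filter). On control diet it stood at 0.856, 1.03, 1.20 and 0.433 CPM in WT livers and at 0, 0 and 0.0789 CPM in GR LKO livers. The groups held 52 counts and 1 count, a ratio of 35.1 with a 95% counting interval of 6.03 to 1412.29 (adjusted p = 0.0338, and 0.0373 without the filter). The adjusted p was 0.109, 0.113 and 0.0773 without GR LKO replicates 1, 2 and 3. Of the 4 fits with 1 WT library left out, 3 no longer tested the gene, among them the fit without WT replicate 2, the library with the pancreas and smooth muscle genes.

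*Sucnr1* at ZT16 had 27.6, 29.5 and 27.6 CPM in WT livers and 47.4, 44.2 and 55.4 CPM in GR LKO livers on caloric restriction. On control diet it had 40.7, 36.6, 26.6 and 29.2 CPM in WT livers and 79.0, 78.6 and 66.4 CPM in GR LKO livers. The knockout livers were higher on both diets (log2 fold change 0.80, adjusted p = 0.00479, and 1.16, adjusted p = 0.00988). Without WT replicate 2 of the control diet it was 1.21 (adjusted p = 0.0287). *Alas2* of the erythrocyte markers was called higher in GR LKO livers at ZT16 on caloric restriction (66.3 against 21.7 CPM) and on control diet (192 against 129 CPM). *Apoa1* of the hepatocyte markers was called lower on caloric restriction (−1.18), where those markers had mean sums of 135287 (WT) against 114497 CPM. Their part in the values at ZT16 was not tested.

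At ZT8 on caloric restriction *Arhgef26* was the gene called, 1 of 6 against 2.55% of all genes, with *Fam107a* too scarce for the test. It had 38.0, 47.8 and 66.7 CPM in WT livers and 15.5, 19.2 and 14.9 CPM in GR LKO livers. Every WT liver was above every knockout liver (−1.61, SE 0.21, adjusted p = 0.0127), yet without GR LKO replicates 1, 2 or 3 the adjusted p was 0.0737, 0.0526 and 0.0681. *Palld* was not called there (0.38, adjusted p = 0.148), nor was *Sucnr1* (0.83, adjusted p = 0.0922), but both were without WT replicate 1 (0.50, adjusted p = 0.0455, and 1.11, adjusted p = 0.0166). *Fam107a* held 70 counts in WT livers and 6 in GR LKO livers at that time, a ratio of 12.2 with a 95% counting interval of 5.35 to 34.5. WT replicate 2 held 48 of the 70 counts (2.62 CPM, where the other WT livers had 0.338 and 0.867 CPM), so the size of this ratio rests mostly on that liver. *Alas2* of the erythrocyte markers was called higher in GR LKO livers at ZT8 on caloric restriction (62.7 against 22.8 CPM). *Apoa1* of the hepatocyte markers was called lower (−0.57), and those markers had mean sums of 118785 (WT) against 103155 CPM. Their part in the values at ZT8 was not tested.

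At the remaining times edgeR called none of the genes it tested between the genotypes, which were 5 of the 6 at the times on caloric restriction and at ZT20 on control diet, and 4 of the 6 on control diet at ZT0, ZT4 and ZT8. On caloric restriction this was at ZT0, where 0.502% of all genes were called, with 2 of the 6 genes at an unadjusted p under 0.05 and 1 called by DESeq2, at ZT4 (0.69%, 2 genes unadjusted, 2 by DESeq2) and at ZT20 (1.47%, 2 genes unadjusted, 1 by DESeq2). On control diet it was at ZT0 (0.536%, 2 genes unadjusted, 1 by DESeq2), at ZT4 (0.195%, 1 gene unadjusted, 0 by DESeq2), at ZT8 (1.43%, 2 genes unadjusted, 1 by DESeq2) and at ZT20 (0.42%, 2 genes unadjusted, 1 by DESeq2). Over all genes an unadjusted p under 0.05 was far more common than a call. It was held by 1606 of 12140, 1755 of 12025 and 2340 of 12076 genes at these times on caloric restriction. On control diet it was held by 1798 of 11749, 1152 of 11817, 1301 of 11582 and 1346 of 11906. Nothing is read from the unadjusted numbers of the 6 genes. The genes that DESeq2 called at these times were *Sucnr1*, higher in GR LKO livers on caloric restriction at ZT0, ZT4 and ZT20 and on control diet at ZT0 and ZT8, and *Arhgef26*, lower at ZT4 on caloric restriction and at ZT20 on control diet. On control diet at ZT8 *Sucnr1* was called by edgeR without GR LKO replicate 2 (0.49, adjusted p = 0.0261). *Map3k6*, too scarce for the test on control diet at ZT0, held 25 counts in WT livers and 8 in GR LKO livers there. Their ratio was 3.27 with a 95% counting interval of 1.43 to 8.38, and the genotypes did not overlap.

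Over the 6 time points the genotypes kept a fixed order for a pair of the genes. Mean *Sucnr1* was higher in GR LKO than in WT livers at all 6 times on both diets, with libraries that did not overlap at 6 times on caloric restriction and at 4 on control diet. Mean *Arhgef26* was lower in GR LKO livers at all 6 times on both diets, without overlap at 4 times on each. Other genes came close to such an order. With the restricted diet named first, mean *Map3k6* was lower in GR LKO livers at 5 and 6 times. Mean *Fam107a* was lower at 6 and 5 times, and mean *Tnfrsf1b* at 5 and 5. *Palld* was the gene with the least order, lower at 3 times on caloric restriction and at 4 on control diet. These times share no livers within a diet. The share of all genes with a fixed order is not given, so nothing is read from these numbers of times.

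Whether the genotype effect differs between the diets was tested as an interaction, from which a difference between the sets of libraries drops out. edgeR called 0 of 5 genes tested at ZT8, and 0 of 6 at ZT12 and at ZT16. Over all genes an unadjusted p under 0.05 was held by 1043 of 12345, 1742 of 12225 and 1306 of 12385 at these times. At ZT8 0.081% of all genes were called, 2 of the 6 genes had an unadjusted p under 0.05, and DESeq2 called 1, *Arhgef26* (log2 −1.25, adjusted p = 0.0201), which had an adjusted p of 0.240 in edgeR. At ZT12 1.01% of all genes were called, and 1 of the 6 genes had an unadjusted p under 0.05, with 0 called by DESeq2. That gene was *Sucnr1*, whose rise in GR LKO livers was larger on caloric restriction by 0.63 on the log2 scale (SE 0.22, adjusted p = 0.215). At ZT16 0.234% of all genes were called, with 2 of the 6 genes at an unadjusted p under 0.05 and 0 called by DESeq2. So the larger fold changes of *Tnfrsf1b* and *Arhgef26* at ZT12 on caloric restriction were not shown to differ from those on control diet (−0.33 and −0.46, adjusted p = 0.483 and 0.478). The interaction of *Fam107a* at ZT12 was 0.15 (SE 0.79, adjusted p = 0.961).

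**Figure D3:**
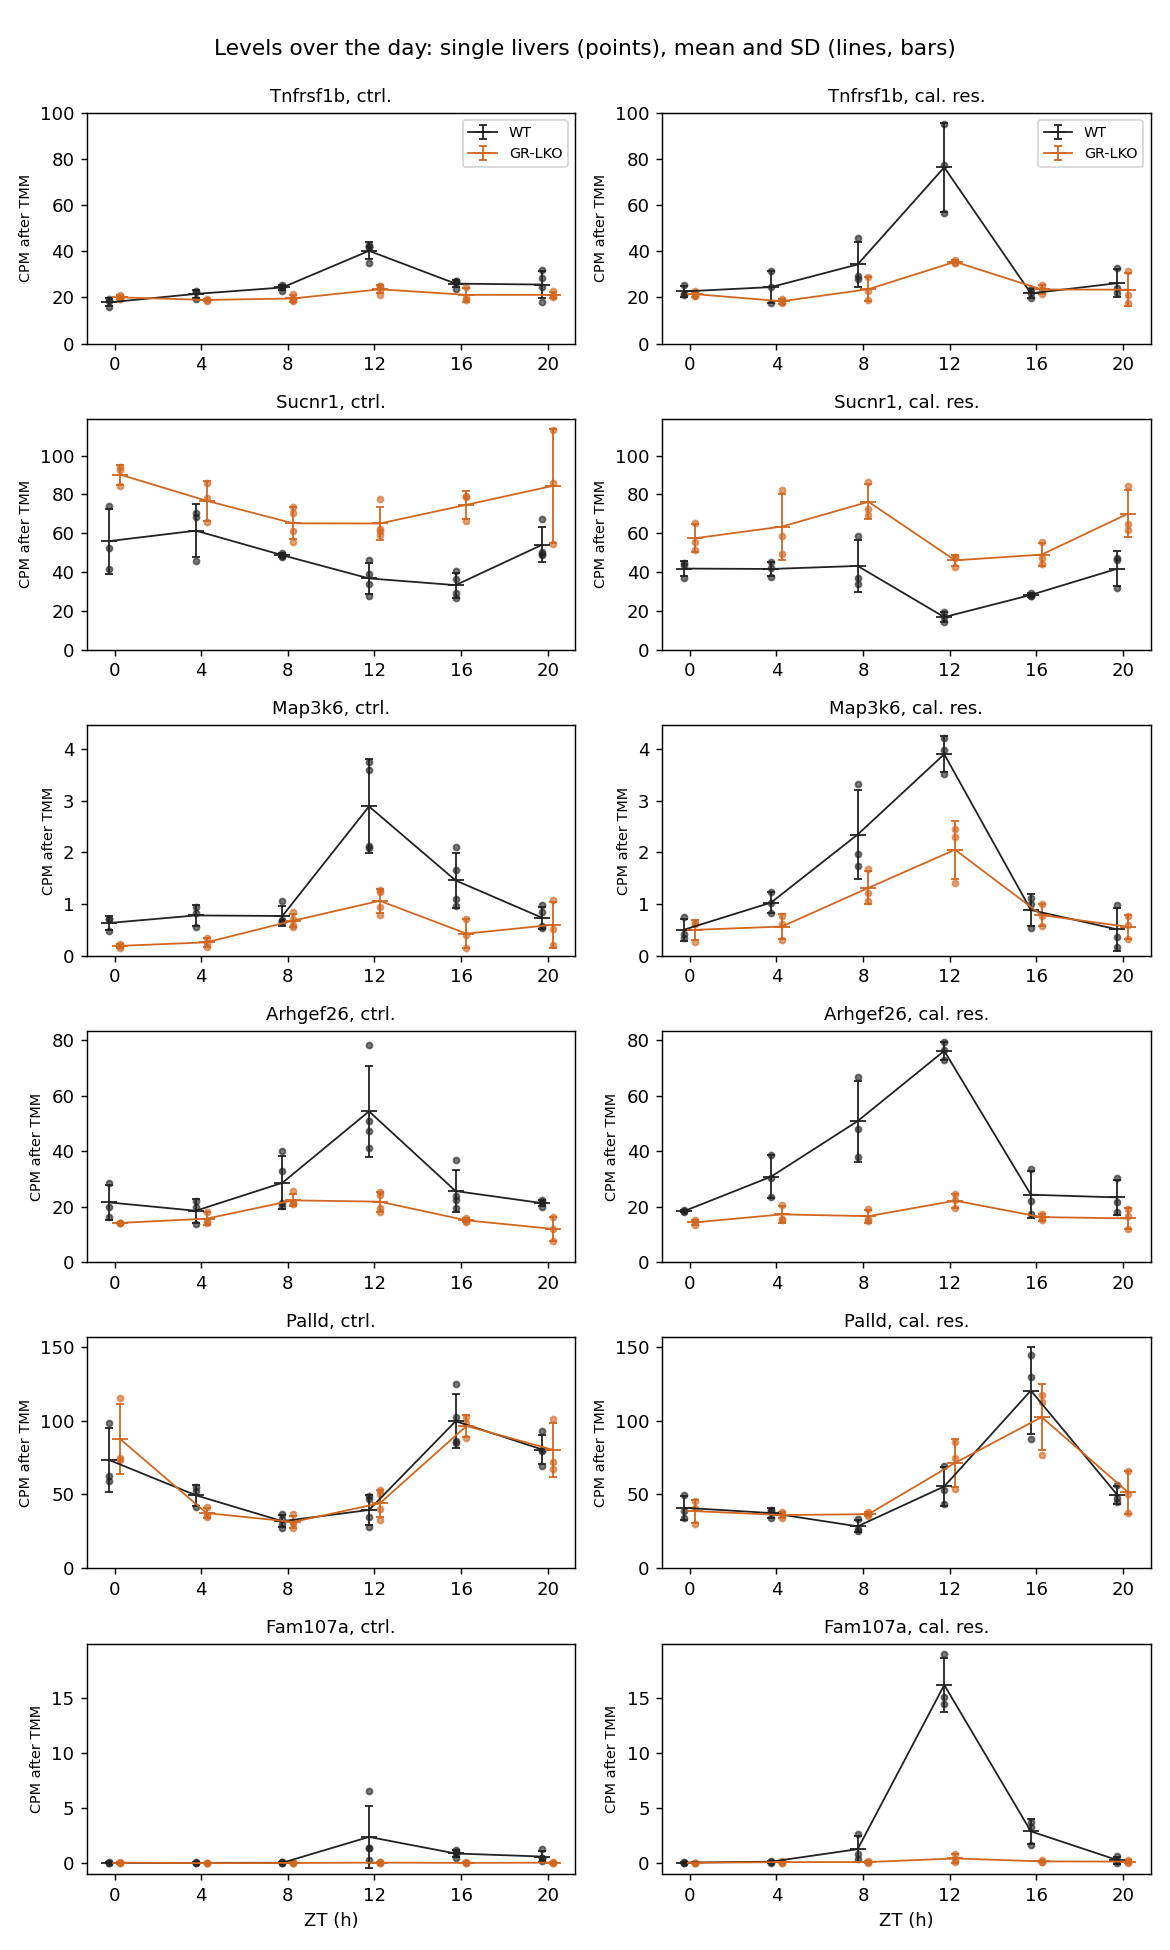
Level of each gene in CPM by time of day (ZT, in hours) in WT livers (black) and GR LKO livers (orange), on control diet at left and on caloric restriction at right. Points are livers and lines with bars are means ± SD, with 3 or 4 livers per group. Mean *Tnfrsf1b* in WT livers on caloric restriction runs from 21.8 CPM at ZT16 to 76.4 CPM at ZT12.

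The time courses separate the genes further. *Tnfrsf1b* in WT livers on caloric restriction ran from 17.5 to 95.3 CPM over 18 livers, with a median of 24.9 CPM, and in GR LKO livers from 17.6 to 36.2 CPM with a median of 22.2 CPM. Its WT livers at ZT12 were above the libraries of every other group of that diet, whose highest was 45.6 CPM. In order of their means on caloric restriction came WT at ZT12 (76.4 CPM), GR LKO at ZT12 (35.4 CPM) and WT at ZT8 (34.3 CPM), while the other 9 groups lay between 18.3 and 26.2 CPM. Of the 11 neighbours in this order 2 were apart in all libraries. On control diet WT livers at ZT12 (40.2 CPM) again stood above every other group, with 31.7 CPM as the highest library elsewhere, and 1 of 11 neighbours was apart.

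*Sucnr1* had its order set by genotype. On caloric restriction the 6 GR LKO groups, from 46.0 CPM at ZT12 to 76.2 CPM at ZT8, all had higher means than the 6 WT groups, which ran from 16.8 CPM at ZT12 to 43.2 CPM at ZT8. On control diet the same split held, with GR LKO means from 65.0 CPM at ZT12 to 90.3 CPM at ZT0 and WT means from 33.3 CPM at ZT16 to 61.3 CPM at ZT4. The lowest group on caloric restriction, WT at ZT12, is the one in which *Tnfrsf1b*, *Map3k6*, *Arhgef26* and *Fam107a* were highest. Neighbouring groups mostly overlapped, with 2 of 11 neighbours apart on caloric restriction and 1 of 11 on control diet.

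*Map3k6* was scarce at most times. In WT livers on caloric restriction it ran from 0.178 to 4.20 CPM with a median of 1.01 CPM, and its mean was 7.68-fold higher at ZT12 (3.90 CPM) than at ZT0 (0.507 CPM). In GR LKO livers the highest mean was also at ZT12, at 2.05 CPM. The WT livers at ZT12 stood above all other libraries of that diet, whose highest was 3.32 CPM, and 1 of 11 neighbours in the order was apart. On control diet 0 of 11 neighbours were apart, and the WT mean at ZT12 was 2.89 CPM.

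*Arhgef26* had raised WT levels before ZT12. Its WT means on caloric restriction were 30.8 CPM at ZT4, 50.9 CPM at ZT8 and 76.2 CPM at ZT12, and 24.3 CPM at ZT16. GR LKO livers stayed between 11.8 and 24.5 CPM over all 18 libraries, with a median of 15.9 CPM. On control diet WT livers ran from 13.5 to 78.2 CPM with a median of 22.2 CPM, and GR LKO livers from 7.71 to 25.5 CPM with a median of 16.1 CPM. WT at ZT12 was above every other group in all libraries on both diets, and 2 of 11 neighbours were apart on each diet.

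*Palld* had its highest mean later, at ZT16, in both genotypes and on both diets. On caloric restriction WT livers had a mean of 121 CPM at ZT16 and GR LKO livers of 103 CPM, and on control diet the means were 99.8 and 96.5 CPM. Its low point in WT livers was ZT8 on both diets, at 28.3 and 31.8 CPM. Of the 11 neighbours in its order 1 was apart on each diet, and the libraries of the genotypes overlapped at all times but 1 on each diet.

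*Fam107a* was close to or under the floor of 3 counts per library in most groups. On caloric restriction the order of WT means was ZT12 (16.2 CPM), ZT16 (2.89 CPM) and ZT8 (1.27 CPM), followed by GR LKO at ZT12 (0.427 CPM), and the other 8 groups lay between 0.0366 and 0.273 CPM. Every WT liver at ZT12 was above every other library of that diet, the highest of which had 3.77 CPM. On control diet WT means were 2.39 CPM at ZT12, 0.879 CPM at ZT16 and 0.601 CPM at ZT20, and the highest of 20 GR LKO libraries had 0.149 CPM. WT livers at ZT20 held 31 counts there and GR LKO livers 2, a ratio of 10.7 with a 95% counting interval of 2.71 to 92.0.

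Daily rhythms were tested with JTK_CYCLE in each genotype and diet, with adjustment over all genes. In WT livers on control diet (22 livers) 6 of the 6 genes were called, where 30.8% of all genes were. *Tnfrsf1b* (adjusted p = 0.00249), *Arhgef26* (0.0160) and *Map3k6* (0.00650) peaked at ZT12, *Fam107a* (0.00255) at ZT14, *Palld* (0.00137) at ZT20 and *Sucnr1* (0.00331) at ZT2. In WT livers on caloric restriction (18 livers) 4 were called, where 26.8% of all genes were, *Arhgef26* (0.00442) and *Map3k6* (4.01e-04) with a peak at ZT10, *Fam107a* (1.73e-04) at ZT12 and *Palld* (0.00863) at ZT18. *Tnfrsf1b* (0.219) and *Sucnr1* (0.0596) were not called there by JTK_CYCLE and were by a cosinor fit (0.0201 and 0.00603). The mean of *Tnfrsf1b* was highest at ZT12 (76.4 CPM), followed by ZT8 (34.3 CPM), and that of *Sucnr1* was low at ZT12 and ZT16.

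In GR LKO livers on caloric restriction (18 livers) *Map3k6* (0.00956), *Fam107a* (0.0302) and *Palld* (0.00438) were called, 3 of 6 where 22.9% of all genes were. On control diet (20 livers) *Arhgef26* (8.04e-04), *Map3k6* (0.00865), *Palld* (0.00301) and *Sucnr1* (0.0301) were called, 4 of 6 where 26.6% were. *Palld* and *Map3k6* were the genes called in every genotype and diet. In GR LKO livers on caloric restriction a cosinor fit did not call *Fam107a* (0.0543), and it called *Tnfrsf1b* (0.0246), which JTK_CYCLE had not (0.0812). With 1 replicate number left out wherever it occurs, many of the JTK_CYCLE calls were lost. Number 4 occurs only on control diet, from ZT8 to ZT20 in WT livers and at ZT8 and ZT12 in GR LKO livers, so that fit leaves out fewer livers. In WT livers on control diet *Arhgef26* lost its call in 3 of 4 such fits (0.00392 to 0.252) and *Tnfrsf1b*, *Map3k6*, *Fam107a* and *Sucnr1* in 1 of 4 each, and on caloric restriction *Arhgef26* in 2 of 3 (0.0132 to 0.189) and *Map3k6* in 1 of 3. In GR LKO livers the call of *Sucnr1* on control diet was lost in all 4 fits (0.0505 to 0.425), that of *Map3k6* in 1 of 4 on control diet and 2 of 3 on caloric restriction, and that of *Arhgef26* on control diet in none. The adjusted p of *Palld* on control diet stayed between 0.00314 and 0.0433 in WT and between 0.0198 and 0.0291 in GR LKO livers. On caloric restriction its calls were lost in all 3 such fits (0.0933 to 0.209 and 0.0790 to 0.118). *Fam107a* kept its call in WT livers on caloric restriction (0.0132 to 0.0340) and lost the one in GR LKO livers (0.144 to 0.391). The fitted change of *Fam107a* from peak to trough on caloric restriction was 2.45 in WT livers and 0.30 in GR LKO livers on the variance-stabilized log2 scale.

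The difference between the genotypes' rhythms was tested with limma. On caloric restriction 1 of 6 genes was called, *Fam107a* (adjusted p = 0.00652), where 0.659% of all genes were called. *Fam107a* passed the count filter of this test through its WT livers alone, so nothing is read from that share, and without the filter, a fit added after the data were seen, its adjusted p was 0.00997. *Arhgef26* came close (adjusted p = 0.0515). With replicate 1, 2 or 3 left out at every time point the adjusted p of *Fam107a* was 0.109, 0.279 and 0.267, and it was 0.0536 in edgeR, which called *Arhgef26* in its place (0.0438). On control diet limma called 0 of 6 genes, where 0.366% of all genes were called. In limma *Tnfrsf1b* (unadjusted p = 0.00229), *Fam107a* (8.98e-04) and *Sucnr1* (0.0223) were 3 genes at an unadjusted p under 0.05. No share of all genes at that unadjusted p is given, so nothing is read from their number. edgeR called 0 of the 6 genes as well. *Fam107a* was called there without replicate 4 (adjusted p = 0.0201). On this diet too it passed the count filter through its WT livers alone, since no GR LKO library held more than 2 counts, so nothing is read from that call.

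Over the means of the 24 groups of the time series, each diet centred on its own mean, the 4 genes that were higher with CORT had Pearson correlations of log2 CPM with each other from 0.727 to 0.828. By Spearman rank correlation the same pairs were lower, from 0.561 to 0.718. *Sucnr1* ran against these 4 genes, from −0.670 to −0.843 (by rank from −0.506 to −0.821). *Palld* had weaker Pearson correlations with the other 5, from −0.258 to 0.261. Within a single diet they reached −0.445 (with *Arhgef26* on control diet) and 0.337 (with *Fam107a* on caloric restriction). Among 12623 genes compared, those most like *Tnfrsf1b* were *Foxo1* (r = 0.949), *Tbc1d8* (0.945) and *Yod1* (0.917). Those most like *Sucnr1* were *Lgals1* (0.910), *Dbi* (0.895) and *Ebpl* (0.893). For *Map3k6* they were *D1Ertd622e* (0.913), *Map3k5* (0.912), which encodes the related kinase ASK1, and *Hgsnat* (0.907). *Arhgef26* was nearest to *Pptc7* (0.951), *Rapgef4* (0.940) and *Fbxo31* (0.934), *Palld* to *Tsen54* (0.928), *Bag3* (0.920) and *Twnk* (0.919), and *Fam107a* to *Serinc3* (0.929), *St3gal5* (0.916) and *Gin1* (0.909). Over single libraries in place of group means *Tsen54* ranked 18 for *Palld* and *Hgsnat* 11 for *Map3k6*, and the others named were among the first 6. The points share their libraries, so these values are descriptions of likeness.

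Other genes of each pathway were taken from lists, with the 6 genes left out. With CORT, where 8.11% of all genes were called, the TNF receptor list had 3 genes called higher and 2 lower of 21 tested (median log2 ratio 0.19), with *Nfkbia* (1.37, adjusted p = 0.00456) and *Traf3* (−0.62) as the most changed in each direction. The stress MAP kinase list had 2 higher and 1 lower of 29 (median 0.17), with the phosphatase gene *Dusp1* at 2.40 (adjusted p = 0.00141). Exchange factors for RhoG and Rac had 1 higher and 2 lower of 22 (median 0.14), among them *Dlg1* (0.47) and *Arhgef19* (−1.17). Genes of actin bundles had 4 lower of 25 (median −0.02), with *Lasp1* at −0.94. Genes of succinate handling had 1 higher and 2 lower of 21 (median −0.07), among them *Egln2* (0.45) and the carrier gene *Slc13a2* (−2.34). Over all genes the median was −0.0067. GR target genes had 22 higher of 25 (median 2.40), led by *Mt2* (8.86). *Nfkbia* and *Dusp1* belong to the list of GR target genes as well, so they are counted in both lists here and in the comparisons below.

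On caloric restriction in the diet comparison, where 47.1% of all genes were called, the same lists had 5 higher and 5 lower of 23 (TNF receptor, median −0.11), 11 higher and 4 lower of 30 (stress MAP kinase, 0.37), 6 higher and 2 lower of 23 (exchange factors, 0.03), 6 higher and 10 lower of 25 (actin, −0.07) and 3 higher and 5 lower of 21 (succinate, −0.03). *Dusp1* (2.84) and *Map2k3* (−0.87) were the most raised and most lowered of the kinase list, as were *Nfkbia* (41.8 against 18.4 CPM) and *Fadd* (4.99 against 10.7 CPM) of the TNF receptor list and *Slc16a1* (68.6 against 37.9 CPM) and *Slc25a10* (112 against 253 CPM) of the succinate list. *Actn4* (0.83) was the most raised of the actin list, and *Arhgef16* (4.72 against 10.7 CPM) the most lowered of the exchange factors. GR target genes had 21 higher and 1 lower of 25 (median 1.37), with *Ddit4* (5.66) and *Bcl6* (−1.26) at the ends.

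In GR LKO livers at ZT12 on caloric restriction, where 15.3% of all genes were called, the lists had 2 higher and 2 lower of 20 (TNF receptor, median −0.03), 1 higher and 3 lower of 29 (stress MAP kinase, 0.0025), 2 higher and 1 lower of 23 (exchange factors, 0.21), 4 higher of 24 (actin, 0.16) and 4 higher of 21 (succinate, 0.09). *Tradd* (0.63) and *Casp8* (−0.65), *Mapk9* (0.33) and *Map2k6* (−1.30), *Elmo2* (0.55) and *Dock1* (−0.76), *Lasp1* (0.88) and *Egln3* (1.90) were the most changed in turn. GR target genes had 20 lower of 25 (median −1.59), with *Mt2* at −4.11. On control diet, where 2.08% of all genes were called, 3 genes of these 5 lists were called, 2 lower in the kinase list, with *Map2k6* at −0.91, and 1 higher in the actin list, beside 9 lower of 24 GR target genes (median −1.07), with *Zbtb16* at −3.86.

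Known GR target genes changed in the same experiments. *Fkbp5* was higher with CORT by 2.63 (adjusted p = 0.00797) and with caloric restriction by 2.36, and lower in GR LKO livers at ZT12 on both diets (log2 fold changes −2.84 for cal. res. and −2.29 for ctrl.). *Per1* had 2.04, 1.02, −1.22 and −1.04 in the same order, and *Tsc22d3* had 1.48, 1.92, −1.86 and −1.51. In the last 3 of these comparisons, which did not choose the genes, *Tnfrsf1b* had 0.85, −1.11 and −0.77, *Map3k6* 1.52, −0.93 (not called) and −1.43, and *Arhgef26* 0.11 (not called), −1.79 and −1.32. *Fam107a* had 5.82 and −5.23 and was not tested in the last. *Palld* had 0.50, 0.36 (not called) and 0.16 (not called), and *Sucnr1* ran the other way, at −0.70, 1.45 and 0.83. *Nr3c1* itself was not called with CORT (−0.06, adjusted p = 0.808).

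Since 4 of the genes were highest in the same livers, the bases upstream of each gene's start were searched for short motifs. RefSeq promoters were found for 6 of the 6 genes, in 10 entries, and 250 bases before each start were read on GRCm38.p6 on both strands. The core of the glucocorticoid response element, AGAACA or its reverse complement TGTTCT, was found in 3 of the 10 entries, 1 of *Palld* and 2 of *Fam107a*, and in 16.1% of 32851 promoters. The 2 *Fam107a* entries lie 2 bases apart and hold the same cores, so they are nearly 1 sequence. The FoxO motif GTAAACA, which reads TGTTTAC on the other strand, was in 0 of the 10 entries and in 3.17% of promoters, the STAT motif TTCNNNGAA was in 2 entries, of *Tnfrsf1b* and *Palld*, and in 7.02%, and the E-box CACGTG was in 0 entries and in 6.02%. The motifs do not overlap in these windows. A match is a description of the letters, and its absence says only that the letters are not in this window. The sequences that hold the glucocorticoid core are shown, with it in capitals, because *Fam107a* and *Palld* changed in opposite directions with CORT. The *Fam107a* window, chr14:8309780-8310029 on the minus strand, precedes a start within the span of the gene, with cores that begin 158 and 110 bases before that start. The *Palld* window is chr8:61902708-61902957 on the minus strand, with a core 23 bases before the start.
Fam107a: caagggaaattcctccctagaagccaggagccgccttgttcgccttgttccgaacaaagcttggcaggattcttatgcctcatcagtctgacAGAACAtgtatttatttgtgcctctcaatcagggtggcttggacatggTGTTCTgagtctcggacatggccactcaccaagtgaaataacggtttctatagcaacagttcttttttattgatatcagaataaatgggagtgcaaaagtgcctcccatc
Palld: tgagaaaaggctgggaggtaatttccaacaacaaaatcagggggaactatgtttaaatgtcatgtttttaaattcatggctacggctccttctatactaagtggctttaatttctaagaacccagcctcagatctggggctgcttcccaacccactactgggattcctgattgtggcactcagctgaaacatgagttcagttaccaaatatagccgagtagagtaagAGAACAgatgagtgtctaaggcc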

How the data were processed

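Poly(A) RNA of 90 mouse livers was sequenced in bulk, 1 library per mouse. The labels give the Illumina TruSeq RNA kit, and the methods name a stranded Illumina kit too, without saying for which libraries. The authors ran FastQC 0.11.9, MultiQC 1.12 and Salmon 1.8.0 (mm10), and collected transcripts into genes through tximport 1.18.0. The deposited values are estimated counts without normalization. A deposited table of variance-stabilized values for the corticosterone experiment was not used, since the tests need counts. Symbols were found for 27244 of the 27654 Ensembl IDs, and 410 had none.

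Estimated counts were rounded and read in R 4.3.3. Each of the 14 comparisons of a pair of groups, and the 3 interactions, was fitted on its own libraries with edgeR 4.0.16 (TMM scaling, filterByExpr with a minimum count of 10, quasi-likelihood F test), and p-values were adjusted over all genes tested with Benjamini-Hochberg, with calls under 0.05. These p-values measure the spread between single mice. Rhythms were tested with JTK_CYCLE (period 24 h, 6 phases, exact null, Bonferroni over phases) on DESeq2 1.42.0 variance-stabilized values of genes with a count, and rhythm differences with limma 3.58.1. Alternatives were DESeq2, RLE scaling, no count filter, a replicate block, 1 fit per diet, a cosinor fit, ZT12 livers of the time series for the diet effect, single libraries for the similar genes, and leaving out each replicate. Marker sums and levels are CPM after TMM. Counting intervals are exact binomial on counts pooled over the livers of a group, and they leave out the spread between mice. No library was a copy of another of its group (0 of 102 pairs within groups identical). Tests were checked on simulated data.

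Genes named are the 6 chosen genes, *Nr3c1*, *Fkbp5*, *Per1* and *Tsc22d3*, for each list the gene called with the largest change in each direction among those with a group mean of at least 5 CPM, and for each of the 6 genes the 3 most correlated genes. Some genes that this rule picks are not reported here. The 6 genes and the lists were chosen with earlier results of these data known. *Clec4f*, *Dcn*, *Ctrb1*, *Cela2a*, *Myh11* and *Ptprb* are named as marker genes, chosen after their values were seen.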

Additional observations from a re-analysis of the deposited data

Results flagged for a closer look

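Each group of 4 livers was checked for a single liver far from the rest. Of 36 such groups for the 6 genes, 6 had one, where chance gives about 1 in 20. All 6 are on control diet, the diet with groups of that size. The one of *Fam107a* is a single count against 0 in the other livers, for which the check could not come out otherwise. No share over all genes is given, so nothing is read from the number of such groups.

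*Tnfrsf1b* in WT livers at ZT12 was 34.8 CPM in replicate 3, with the other 3 livers between 41.7 and 42.5 CPM. *Arhgef26* in GR LKO livers at ZT8 was 25.5 CPM in replicate 2, above the others at 20.8 to 21.4 CPM. *Map3k6* in WT livers at ZT8 was 1.07 CPM in replicate 2, above 0.649 to 0.701 CPM. *Fam107a* in GR LKO livers at ZT8 was 0.0707 CPM in replicate 1 and 0 in the other 3, which is within the limit that a count of 0 allows. *Sucnr1* was 77.8 CPM in replicate 3 of the GR LKO livers at ZT12, above 59.3 to 62.1 CPM, and 67.5 CPM in replicate 3 of the WT livers at ZT20, above 48.8 to 50.4 CPM. These livers differ from each other, so no library recurs.

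The rhythm of *Fam107a* on caloric restriction was called different between the genotypes, with an adjusted p of 0.00652 in limma's test of the difference itself (0.00997 without the count filter, which the gene passed through its WT livers alone), the sole such difference that limma called among the 6 genes. In edgeR its adjusted p was 0.0536, and *Arhgef26* was called there (0.0438). The difference of *Fam107a* was not called in any of the 3 fits that leave out a replicate at every time point.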

How the results depend on the processing

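RLE scaling in place of TMM kept every call of the 6 genes and every count of genes called within 1.5 times. Without the count filter the counts of genes stayed within 1.5 times, and on control diet *Sucnr1* was called at ZT8 (adjusted p = 0.0497) while *Map3k6* lost its call at ZT12 (0.0629) and *Fam107a*, not tested with the filter, was called there (0.0472). *Palld* at ZT20 on control diet changed sign to −0.0032. A cosinor fit, and JTK_CYCLE on filtered genes, kept the counts within 1.5 times. With the ZT12 WT livers of the time series 3 of the 6 genes, and 38.1% of all genes, were called between the diets. Added after the data were seen were the next fits. Those livers without WT replicate 3 on caloric restriction gave 3265 genes and 3 of the 6, and the rhythm differences without the count filter kept the same calls of the 6. Over single libraries the 3 genes most like each of the 6 were the same for *Tnfrsf1b*, shared 1 for *Palld* and shared 2 for each of the other genes. The cause of the changes given here was not tested.

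DESeq2 called fewer genes than edgeR between the diets (6012 against 6155) and more elsewhere. Between genotypes on caloric restriction it called 434 at ZT0, 440 at ZT4, 697 at ZT8, 917 at ZT16 and 686 at ZT20, and on control diet 407, 195, 369, 569, 634 and 297 from ZT0 to ZT20. Interactions had 126, 473 and 186 at ZT8, ZT12 and ZT16. Of the 6 genes it called 1, 2, 3 and 1 on caloric restriction at ZT0, ZT4, ZT8 and ZT20, 1 each on control diet at ZT0, ZT8 and ZT20, 5 at ZT12 and 3 at ZT16 on control diet, and 1 in the interaction at ZT8. For the rhythm difference on caloric restriction edgeR called 130 genes, among them *Arhgef26* (adjusted p = 0.0438) and not *Fam107a* (0.0536).

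With 1 fit of all libraries of a diet the genes called were 169, 358, 724, 2805, 1025 and 1127 on caloric restriction from ZT0 to ZT20, and 630, 48, 36, 537, 469 and 387 on control diet. Of the 6 genes 1, 3 and 1 were called on caloric restriction at ZT4, ZT8 and ZT20 and 1, 5 and 3 on control diet at ZT0, ZT12 and ZT16. *Palld* at ZT20 on control diet was −0.0061.

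The replicate numbers were not treated as pairs. In 0 of the 14 comparisons did every pair correlate above 0.1, but groups of 3 or 4 livers are too small to decide whether the numbers mark pairs. With a replicate block the genes called were 534 with CORT, 9, 13, 151, 889, 287 and 76 on caloric restriction from ZT0 to ZT20, 9, 1, 36, 101, 37 and 3 on control diet, and 4, 5 and 3 in the interactions at ZT8, ZT12 and ZT16. Of the 6 genes 1 was called at ZT12 and 1 at ZT16 on control diet. In this block fit *Map3k6* on caloric restriction at ZT0 was 0.0032, *Palld* at ZT20 on control diet −0.0067 and *Fam107a* in the interaction at ZT12 −1.19, each with its sign changed.

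With each replicate left out in turn, the genes called ran from 206 to 1008 with CORT and from 4512 to 6471 between diets. Between genotypes on caloric restriction they ran from 1 to 103, 13 to 127, 56 to 315, 899 to 1329, 234 to 346 and 16 to 194 from ZT0 to ZT20, and on control diet from 3 to 81, 1 to 13, 56 to 160, 137 to 199, 84 to 183 and 12 to 48. Interactions ran from 4 to 35, 49 to 148 and 18 to 49 at ZT8, ZT12 and ZT16. Rhythms on caloric restriction ran from 1284 to 1779 for WT and from 1126 to 1299 for GR LKO, and on control diet from 3362 to 4519 and from 2329 to 4231. Rhythm differences ran from 0 to 2 on caloric restriction and from 3 to 29 on control diet. Each of these fits holds fewer livers.

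Of the 6 genes these fits called 4 to 5 between diets, 0 to 3, 4 to 4 and 2 to 2 on caloric restriction at ZT8, ZT12 and ZT16, and 0 to 1, 2 to 4 and 1 to 2 on control diet. On caloric restriction they called 2 to 2 rhythms for WT and 0 to 1 for GR LKO, on control diet 2 to 6 and 2 to 3, and 0 to 0 and 0 to 1 rhythm differences on caloric restriction and control diet.

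Log2 fold changes that changed sign in such a fit were none of them called. On caloric restriction *Tnfrsf1b* ran from −0.12 to 0.017 at ZT0 and from −0.43 to 0.048 at ZT20. *Map3k6* ran from −0.21 to 0.38 at ZT0, −0.43 to 0.051 at ZT16 and −0.26 to 1.04 at ZT20, and *Palld* from −0.20 to 0.095 at ZT0 and −0.17 to 0.23 at ZT20. On control diet *Map3k6* ran from −0.97 to 0.14 at ZT20, and *Palld* from −0.0036 to 0.52 at ZT0, −0.10 to 0.052 at ZT8, −0.12 to 0.070 at ZT16 and −0.20 to 0.11 at ZT20. In the interaction *Tnfrsf1b* ran from −0.40 to 0.046 at ZT8, *Fam107a* from −1.08 to 1.06 at ZT12 and *Arhgef26* from −0.033 to 0.49 at ZT16.

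Depth limits *Fam107a* and *Map3k6* most, since several of their groups held only a few counts per library and were not tested. Groups of 3 or 4 livers give wide errors, levels of the diets in the time series cannot be told apart from their sets of libraries, and bulk RNA does not say which cells hold a transcript.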
